A study of Sus scrofa with 12 samples.

Results

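Z-disc and intermediate filament genes were followed in the longissimus dorsi of Iberian pigs as a set of 10 named genes, ACTN2, FLNC, LDB3, PDLIM3, PDLIM5, MYOT, MYPN, TCAP, DES and SYNM, out of 28220 genes annotated on the chromosomes of the pig genome build Sscrofa11.1. The genes were taken by name and not by their values. A value above 0 was found for 15015 of these genes, and 12402 passed the filter on low values, the 10 genes among them. The study asked which genes differ in muscle between pigs of divergent genetic merit for intramuscular fat. It sequenced total RNA of the back muscle of 12 purebred, castrated Iberian males, fattened outdoors on acorns and grass, as 1 library per pig. The 6 pigs of the H group had a high estimated breeding value for intramuscular fat (2.78 to 3.48) and 10.62 to 13.8% fat in the muscle. The 6 pigs of the L group had a low breeding value (-1.46 to -1.31) and 1.7 to 2.28% fat. These are the values listed with the samples, and for the L group the paper states a mean fat content above all of them. Breeding value and fat content go together in these pigs and cannot be told apart, and a library holds whole muscle, so that fewer fibres and less RNA per fibre cannot be told apart either.

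The Z-disc is the plate at each end of a sarcomere, the contractile unit of striated muscle, where the actin filaments of neighbouring sarcomeres are cross-linked. Alpha-actinin forms the cross-links, and around it sit filamins, PDZ-LIM adaptors and the immunoglobulin-domain proteins of the myotilin and myopalladin family. Desmin and synemin, both intermediate filament proteins, tie the Z-discs of neighbouring myofibrils to each other and to the cell membrane, and mutations in many of these genes cause human myofibrillar myopathy or cardiomyopathy.

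The values are FPKM, the fragments of a transcript relative to its length and to the mapped fragments of the library, which the authors computed for each assembled transcript of each library. Here they were summed over all transcripts assigned to a gene and brought to a common scale, and no table of counts was used, so that the number of reads behind a single value is unknown. The coverage listed in the files amounted to 9.88 to 17.6 gigabases per library, of which 41.5 to 56.1% lay in transcripts assigned to a gene. Of the 8 markers of skeletal muscle fibres 7 were tested, at a summed level of 31918 to 52826 FPKM in the H pigs and 33921 to 45913 in the L pigs. The defining fibre gene ACTA1 was listed at 0 in all libraries, so that a value of 0 in these files may be a transcript that was not assembled. Libraries are named by group and individual number, H1 to H6 and L1 to L6, and H4 and L3 stand apart from the rest of their groups in several of the lists given further on.

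Several results turn on single exons, whose reference sequence on Sscrofa11.1 (RefSeq) is printed here 5′ to 3′ on the strand of the gene. LDB3 (chromosome 14, 87660961 to 87722249, plus strand) was assembled with a short or a long 3′ part after the same 37-base coding exon. The first sequence is that shared exon, the next is the start of the exon of the short form, read in the annotated frame up to its first stop codon (in capitals), and the last is the first 90 bases of the 143-base coding exon used in the long form.
LDB3 shared exon, chr14:87683153-87683189: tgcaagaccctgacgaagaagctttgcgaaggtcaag
LDB3 short form, chr14:87689369-87689465: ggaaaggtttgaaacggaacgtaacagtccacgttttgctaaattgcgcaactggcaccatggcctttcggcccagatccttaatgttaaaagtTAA
LDB3 long form, chr14:87699008-87699097: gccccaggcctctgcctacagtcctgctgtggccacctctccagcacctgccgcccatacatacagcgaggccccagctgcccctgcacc

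In MYOT (chromosome 2, 139899245 to 139919095, plus strand) 2 annotated splice acceptors lie 3 bases apart, and capitals mark the 3 bases that only the upstream acceptor keeps in the coding exon. In FLNC (chromosome 18, 19759734 to 19787616, minus strand) a coding exon of 63 bases, in capitals between the bases AG and GT of its introns, was left out of part of the transcripts. In PDLIM5 (chromosome 8, 125044027 to 125259969, minus strand) 1 library listed a transcript of 90 bases that lies inside a coding exon of 92 bases.
MYOT acceptors, chr2:139912208-139912257: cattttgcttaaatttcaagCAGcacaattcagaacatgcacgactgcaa
FLNC exon, chr18:19778597-19778663: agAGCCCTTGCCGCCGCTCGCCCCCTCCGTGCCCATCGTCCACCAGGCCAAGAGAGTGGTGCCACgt
PDLIM5 short transcript, chr8:125132620-125132709: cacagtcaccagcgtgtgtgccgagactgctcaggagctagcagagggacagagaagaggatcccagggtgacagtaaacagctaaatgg

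The 10 genes were among the most abundant of the muscle. By the median over the 12 libraries MYPN, the lowest of those above 0 in every library, had 121 FPKM, more than 97.4% of the genes tested, and DES, the highest, had 1910 FPKM, more than 99.8% of them. The order ran from DES (1910 FPKM) over PDLIM3 (1256), LDB3 (1201), MYOT (775), FLNC (595), ACTN2 (490), PDLIM5 (472), TCAP (322) and SYNM (241) to MYPN (121). The place of TCAP is not that of a measured level: it was listed at 0 in 6 libraries and at 644 to 1366 FPKM in the other 6. LDB3 was above MYOT in 12 of 12 libraries and SYNM above MYPN in 12 of 12. Neighbours elsewhere in this order changed places between pigs: DES was above PDLIM3 in 9 libraries, PDLIM3 above LDB3 in 8 and ACTN2 above PDLIM5 in 7.

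In the comparison of H with L, 0 of the 10 genes passed the test (limma, Benjamini-Hochberg adjusted p under 0.1), against 1 of 12402 genes tested (0.00806%). At an unadjusted p under 0.05 stood 2 of the 10, DES and SYNM, both lower in H, against 906 of 12402 genes (7.31%) in either direction, 419 (3.38%) lower in H and 487 (3.93%) higher. The values of H and L overlapped for all 10 genes, and they did not for 69 of 12402 genes (0.556%). Of the 10 genes 6 were higher in H and 4 lower, with a median log2 fold change of 0.11, beside 6265 higher (50.5%) and a median of 0.0026 among all genes tested. All fold changes are given as H minus L on the log2(FPKM + 0.5) scale.

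**Figure D1:**
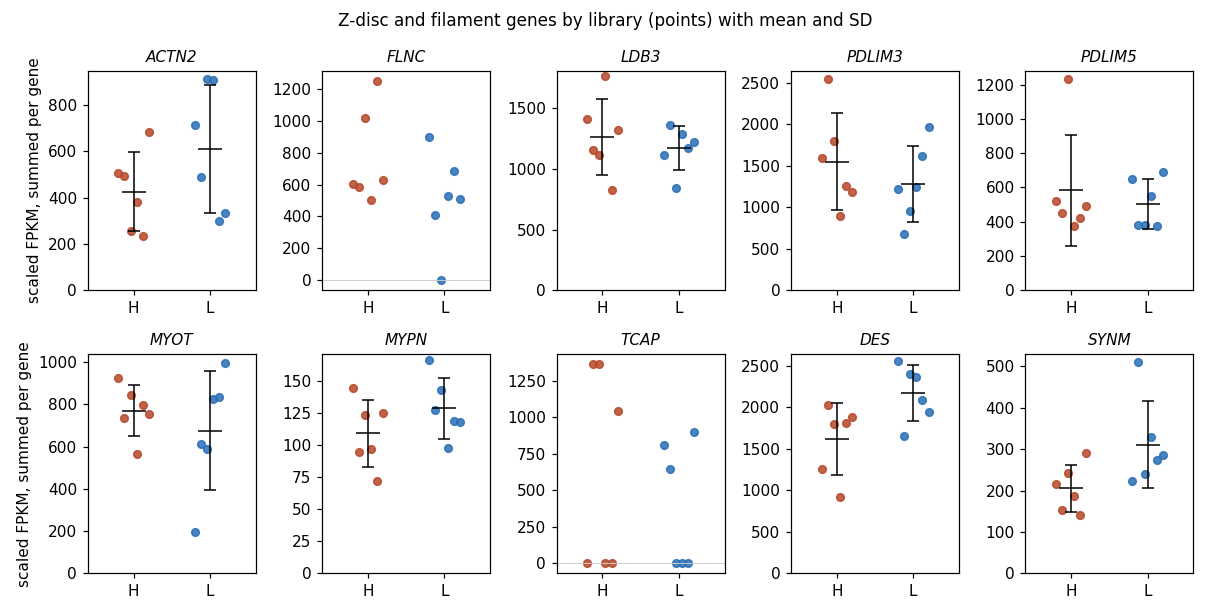
Scaled FPKM of each of the 10 genes, each panel with its own axis from 0; points are the 6 H and 6 L libraries and, for genes above 0 in all libraries, the black bar is the mean with its SD. The groups overlapped for every gene, DES, SYNM, ACTN2 and MYPN had lower means in H, and TCAP and FLNC had libraries listed at 0.

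Both genes with an unadjusted p under 0.05 encode intermediate filament proteins. DES (chromosome 15, 121428539 to 121435426, plus strand) encodes desmin, the main intermediate filament protein of muscle. Its level was lowest at 924, median 1809 and highest 2031 FPKM in the H pigs, and 1653, 2227 and 2559 FPKM in the L pigs. The groups overlapped, with 2 of 6 H pigs (H1 and H4) below all L pigs. The means were 1619 ± 429 FPKM in H and 2168 ± 337 in L (SD, n = 6), a difference of -0.46 on the log2 scale, standard error 0.21. The adjusted p of limma was 0.680, and the exact permutation test over the 924 arrangements of the pigs gave an unadjusted two-sided p of 0.037 (the smallest it can give is 0.0022). The change was -0.12 (adjusted p = 0.944, limma) after quantile normalization, and -0.27 without H4 and L3.

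SYNM (chromosome 1, 137855644 to 137883914, plus strand) encodes synemin, a large intermediate filament protein that assembles with desmin. Its level in H was lowest at 141, median 201 and highest 291 FPKM. In L it was lowest at 223, median 280 and highest 511 FPKM. Of the H pigs 4 lay below all L pigs and H3 and H6 lay within the range of L. The difference was -0.59 on the log2 scale, standard error 0.23 (adjusted p = 0.645, limma) and the exact permutation test gave an unadjusted p of 0.035. The highest value, L2, came from 2 transcripts, of which 1 is a single exon of 2637 bases with 235 FPKM inside the last part of the gene. With spliced transcripts alone the change was -0.44.

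DES and LDB3 depended on which bases of the assembled transcripts were counted. The assembled DES transcripts began up to 1328 bases before the annotated start and ended up to 3641 bases after the annotated end, and the complete annotated intron chain was found in 6 libraries. When only the FPKM over annotated exons was counted, per base of these exons and from any transcript of the strand (a choice made after the data were seen), DES lay between 549 and 1092 in H and between 1187 and 1564 in L. The groups then did not overlap, as was so for 92 of 10576 genes (0.87%) on that scale. The change was -0.66 on the log2 scale, standard error 0.17 (adjusted p = 0.357, limma), and the exact permutation test gave an unadjusted p of 0.0022, its smallest. LDB3 had a log2 difference of -0.51 and SYNM of -0.50 on that scale (adjusted p = 0.468 for both, limma), and their exact permutation tests gave unadjusted p of 0.013 and 0.026. ACTN2 had a difference of -0.49 (adjusted p = 0.553, limma; exact permutation test, unadjusted p = 0.076). There 0 of the 10 genes passed limma, against 1 of 10576 (0.00946%), and 3, namely DES, LDB3 and SYNM, had an unadjusted p under 0.05, against 9.57% of genes. For LDB3 the FPKM over annotated exons was 16.9 to 22.8% of the sum over transcripts in H and 23.3 to 38.3% in L. Its long assemblies ran to near the annotated end in L1, L3, L4 and L6 and stopped earlier in all H pigs. They also stopped earlier in L2, which lay above all H pigs, and in L5, which lay within their range. The part of this end in the LDB3 change was not tested.

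**Figure D2:**
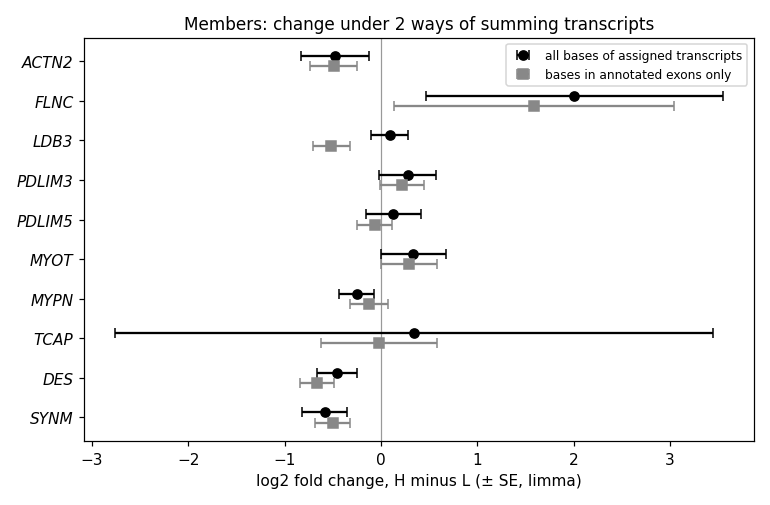
Log2 fold change of H minus L with its standard error (limma, 6 pigs per group) for the sum over assigned transcripts (circles) and for FPKM over annotated exons alone (squares). DES, SYNM, ACTN2 and MYPN lay below 0 in both, and LDB3, PDLIM5 and TCAP lay on opposite sides of 0. The wide bars belong to TCAP and FLNC, which have libraries listed at 0.

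ACTN2 (chromosome 14, 54670727 to 54742717, minus strand) encodes alpha-actinin, the cross-linker of the Z-disc. The H pigs ranged from 234 over a median of 437 to 684 FPKM. The L pigs ranged from 298 over a median of 602 to 914 FPKM. The L pigs split widely, with L3 and L4 at 914 and 907 FPKM and L5 and L6 at 298 and 333 FPKM. The log2 fold change of -0.48 did not exceed the spread between pigs (standard error 0.35, adjusted p = 0.785, limma). H3, H5, L5 and L6, the lowest pigs, each had 1 assembled ACTN2 transcript. The others each had 2, whose FPKM are added in the sum. In L3 731 FPKM came from a piece of 13 exons and 1625 bases. Over annotated exons L3, L4, L5 and L6 had 426, 773, 290 and 323. FLNC encodes filamin C, the muscle filamin that links actin, the Z-disc and the membrane. In H it ranged from 502 over a median of 617 to 1252 FPKM, with H3 and H5 above all L pigs. In L it was 897, 411, 0, 527, 684 and 509 FPKM in L1 to L6. In L3 no assembled transcript of its strand touched an FLNC exon, and the fitted change of 2.01 (adjusted p = 0.790, limma) rested on that 0: it was 0.31 with a standard error of 0.28 without L3.

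The PDZ-LIM adaptors bind alpha-actinin through their PDZ domain. LDB3, also called ZASP or cypher, ranged in H from 826 over a median of 1236 to 1764 FPKM. In L it ranged from 846 over a median of 1201 to 1366 FPKM. The log2 fold change was 0.09 (95% interval -0.32 to 0.50), -0.10 without H4 and L3, and -0.51 over annotated exons (adjusted p = 0.468, limma). PDLIM3 (chromosome 15, 46516178 to 46546658, minus strand) encodes the actinin-associated LIM protein. It ranged in H from 895 over 1432 to 2555 FPKM and in L from 674 over 1234 to 1973 FPKM, with a difference of 0.28 on the log2 scale (standard error 0.30). The highest pig, H2, was the one whose PDLIM3 was assembled as separate pieces of 3 and 5 exons, with 1607 and 759 FPKM, whose FPKM are added in the sum. Without H2 the change was 0.12.

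PDLIM5, the enigma homolog, had 376 to 521 FPKM in 5 of the H pigs and 1232 in H3, and 373 to 690 FPKM in L. Of the 1232 FPKM in H3 670 came from the 90-base transcript printed above, and without it H3 had 562 FPKM, inside the range of L. The change was 0.13 with that transcript and -0.06 without transcripts under 200 bases. A single PDLIM5 intron chain of 10 exons was found in all 12 libraries at 372 to 690 FPKM, and it was the only intron chain of the 10 genes with that property. It stops before the exons of the LIM domains. The transcripts over those exons were separate assemblies, not joined to the exons of the main chain, and summed to 0.46 to 2.86 FPKM per library.

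MYOT and MYPN encode myotilin and myopalladin, immunoglobulin-domain proteins that bind alpha-actinin. MYOT ranged from 564 over a median of 775 to 925 FPKM in H. In L it was 194 FPKM in L1 and 591 to 998 FPKM in the other 5 pigs. In L1 the assembled transcripts had a mean length of 8596 bases and ran to position 139925282, past the annotated end of the gene. They had 92.4 and 102 FPKM, each value standing for the whole length of its transcript. Mean lengths were 1748 to 2605 bases in the other 11 pigs. The change of 0.33 (standard error 0.34) was 0.01 without L1. MYPN (chromosome 14, 71283271 to 71388591, plus strand) ranged from 72.1 over 110 to 145 FPKM in H. In L it ranged from 98.0 over 124 to 167 FPKM. Of the H pigs 3 lay below all L pigs, and the change was -0.25 with a standard error of 0.18 (adjusted p = 0.783, limma) and -0.14 without H5.

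TCAP (chromosome 12, 22651666 to 22652904, minus strand) encodes telethonin, the small protein that caps titin at the Z-disc. It had 1366, 1363 and 1045 FPKM in H2, H3 and H6 and 813, 644 and 903 FPKM in L1, L2 and L6, and it was listed at 0 in H1, H4, H5, L3, L4 and L5. In each of these 6 libraries a transcript covered 91.6 to 100% of the TCAP exons but ran on into a neighbouring gene, STARD3 in 4 libraries and PNMT in 2, and was assigned to that gene. Its FPKM, spread over 3985 to 5990 bases in all, summed to 144 to 357. Transcripts over TCAP exons were thus listed in all 12 libraries, and TCAP was at 0 where they ran on into a neighbour. Over annotated exons its level was 139 to 1270 in H and 178 to 804 in L, and the change was -0.02 with a standard error of 0.61.

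**Figure D3:**
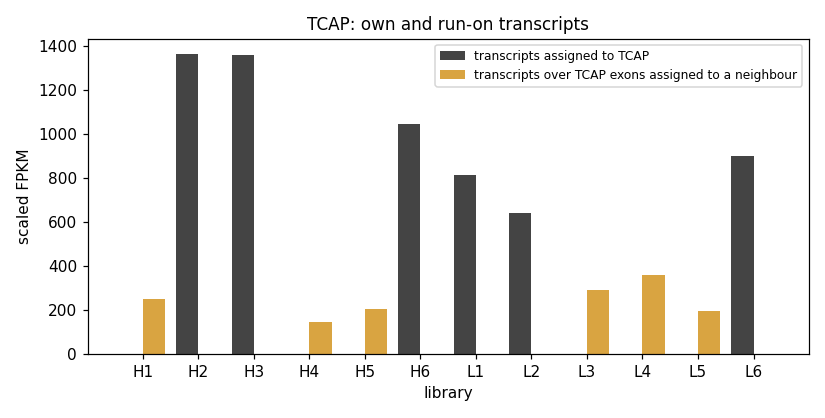
Scaled FPKM by library of the transcripts assigned to TCAP (dark bars) and of the transcripts over TCAP exons that were assigned to STARD3 or PNMT (light bars). Each library holds 1 kind and not the other.

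The genes differed in how they varied within a group. The SD of log2(FPKM + 0.5) within groups was smallest for LDB3 (0.31), MYPN (0.32) and DES (0.35), lower than the median of all genes tested (0.39), and was 0.41 for SYNM, 0.52 for PDLIM5, 0.54 for PDLIM3, 0.63 for MYOT and 0.66 for ACTN2. FLNC (2.98) and TCAP (6.00) had larger values through their zeros, and L1 of MYOT and H3 of PDLIM5 carried part of the spread of those genes.

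The 10 genes gave 93 intron chains, of which 62 were found in a single library, and 11 chains found in at least 6 libraries were tested. Of the 11 chains 0 passed (limma, adjusted p under 0.1), against 7 of 12707 chains of all genes (0.0551%). The smallest p among them was 0.259, for a PDLIM5 chain of 6 exons under 1 FPKM. The share of the most abundant chain in its gene could be compared for LDB3, MYOT and PDLIM5. Of the 3, 0 passed an exact permutation test after adjustment, a count not set beside other genes. The share is sensitive to an assembly that drops 1 exon, and the chain was absent from 3 libraries for LDB3 and from 1 for MYOT.

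Alternative introns of the 10 genes were compared in pairs, a rule set after the data were seen: 2 introns that share a splice site and are each found in at least 6 libraries. The rule gave 4 pairs, in LDB3, MYOT, FLNC and MYPN. In LDB3 the short form, in which the 37-base exon printed above is spliced to the exon starting at 87689369, carried most of the FPKM. By the last base of each transcript, a measure also chosen after the data were seen, the long form made up 17.3, 7.995, 20.4, 16.8, 7.76 and 17.0% of the FPKM with either end in H1 to H6. In L1 to L6 it made up 20.6, 29.3, 24.1, 20.9, 22.0 and 19.0%. Of the H pigs 5 lay below all L pigs, and H3 lay inside the range of L.

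The LDB3 long form had a mean share of 14.5 ± 5.3% in H and 22.7 ± 3.7% in L (SD, n = 6), a difference of -8.11 percentage points (H minus L) (exact permutation test, unadjusted p = 0.0043). Without H2 and H5 the difference was -4.78 points (exact permutation test, unadjusted p = 0.019). In H2 the transcript with the long end, at 92.2 FPKM, was spliced from the shared exon to the exon of the short form. It counts as the long form by its last base alone. In H5 the pieces with the long end started after the shared exon. For the junction itself the mean share of the short form was 88.1 ± 9.3% in H and 77.3 ± 3.7% in L. The exact permutation test gave an unadjusted p of 0.0043, and 0.017 adjusted over the 4 pairs, themselves chosen after the data were seen. H2 and H5 entered at 100%, since no junction to the long exon was assembled in them. Neither the end share nor the junction share was set beside those of other genes. How common such a difference is in these libraries is therefore unknown. In FPKM the short form had 762 to 1166 in H and 642 to 1021 in L (exact permutation test, p = 0.286), and the long form 64.1 to 244 in H and 204 to 400 in L (exact permutation test, p = 0.069). In H4 a further 466 FPKM belonged to a transcript that ends inside the shared exon and shows neither form. The long assemblies of L1, L3, L4 and L6 ended between 87722166 and 87722874, near the annotated end of the gene, and those of L2, L5 and the 6 H pigs at 87719561. Where it is spliced directly from the shared exon to its own exon, the long form encodes the C-terminal LIM domains of this gene. The short form ends after 31 further codons in the annotated frame.

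**Figure D4:**
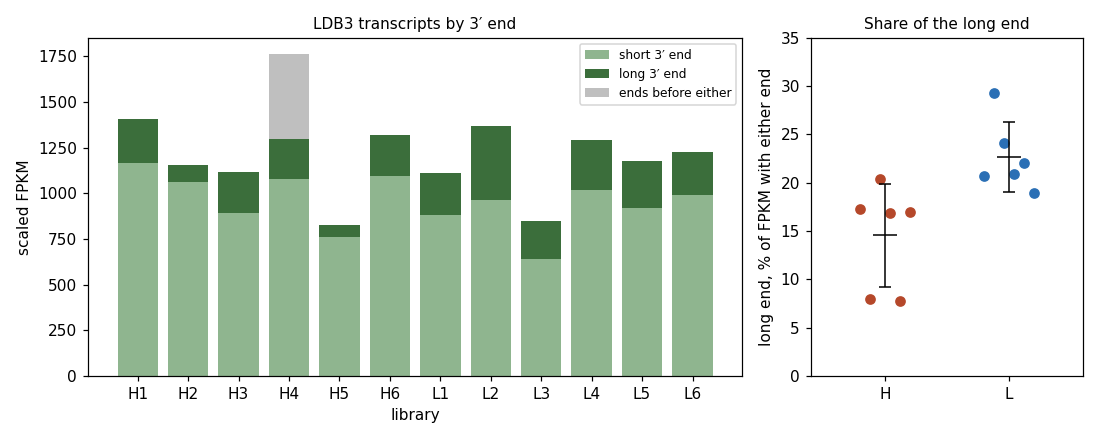
Left, scaled FPKM of LDB3 transcripts in each library by where they end; right, the long form as a percentage of the FPKM with either end, points for pigs with the mean and SD. The long form lay between 7.76 and 20.4% in H and between 19.0 and 29.3% in L.

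In MYOT the upstream acceptor, which keeps the 3 bases in capitals, carried 51.8 to 52.9% of the FPKM in H1 to H5 and 27.3% in H6. In L it carried 50.7 to 55.0% in 5 pigs and 65.2% in L3. Both acceptors were thus used at levels within 5 percentage points of even in 10 of 12 pigs, and the group means of 48.2 ± 10.3% and 55.0 ± 5.2% (SD, n = 6) did not differ beyond their spread (exact permutation test, p = 0.121). The FLNC exon of 63 bases, which keeps the reading frame with 21 codons, was included in 26.1 to 100% of the FPKM in H and 27.7 to 100% in the 5 L pigs with a value (exact permutation test, p = 0.584). It was left out of part of the transcripts in 8 of 11 pigs. The upstream first exon of MYPN took 34.3 to 67.5% in 5 H pigs and 0% in H3, and 27.9 to 65.3% in 3 L pigs and 0% in L2, L3 and L5 (exact permutation test, p = 0.214). Since each library was assembled alone, a share of 0 or 100 says that the other form was not assembled.

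**Figure D5:**
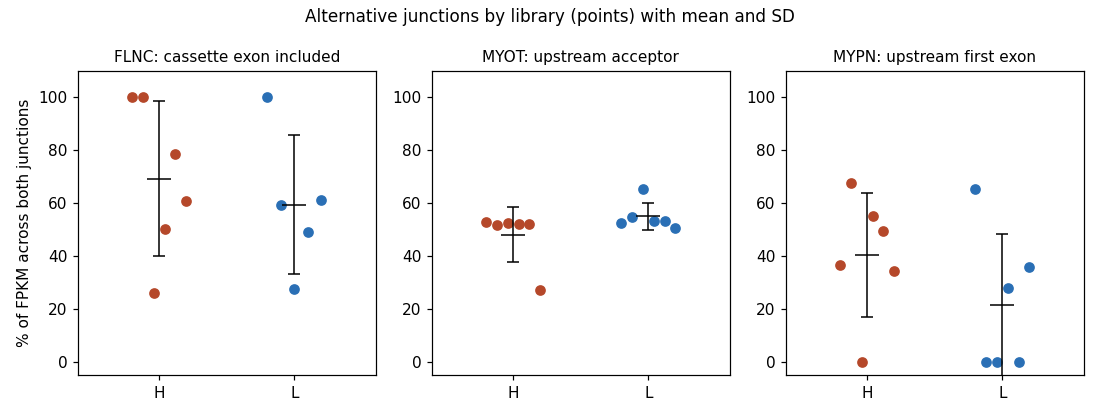
Percentage of FPKM across the inclusion junction of the FLNC exon, the upstream MYOT acceptor and the upstream MYPN first exon, each out of both junctions compared; points are pigs, bars the mean and SD. MYOT was close to even apart from H6 and L3, and FLNC and MYPN varied over most of the scale in both groups.

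The 10 genes were also compared with each other across pigs. Of 45 pairs 29 had a positive Pearson correlation over the 12 libraries, the median was 0.07, and 0 pairs passed after adjustment over the 45 (permutation test, adjusted p under 0.1). The pair with the largest Pearson correlation in size was DES with LDB3 (Pearson r = -0.66, permutation p = 0.020; Spearman rho = -0.61, permutation p = 0.038; adjusted permutation p = 0.641 and 0.693). It had an r of -0.76 within H and -0.59 within L, and -0.22 without the 2 libraries farthest from the median of DES. Pairs with a gene listed at 0 changed when those libraries were left out. FLNC with LDB3 had an r of 0.41 over all 12 libraries and -0.78 over the 11 with both above 0. TCAP had an r of 0.82 with PDLIM3 and -0.78 with SYNM over the 6 libraries with a TCAP value, against 0.25 and 0.24 over all 12. The largest Spearman correlation was that of MYOT with PDLIM3 (rho = 0.68, permutation p = 0.018, adjusted permutation p = 0.693), with a Pearson r of 0.36 (permutation p = 0.250, adjusted 0.818). Their r was 0.53 within H, 0.30 within L, and 0.68 without the 2 libraries farthest from the median of MYOT. Genes whose profile was most like that of a member, among genes above 0 in all 12 libraries, were HHATL (r = 0.98) and NDUFB5 (0.97) for FLNC, whose likeness includes the 0 of L3, ASB2 (0.96) and PLCL2 (0.93) for LDB3, ZMAT2 (0.92) and RPA3 (0.90) for MYOT, and MFAP1 (0.90) and SNX12 (0.90) for DES. For ACTN2 they were RNF220 (0.86) and PRMT7 (0.84), for MYPN SYNGR2 and USO1 (both 0.84), for PDLIM3 CD247 (0.88) and MGLL (0.87), and for PDLIM5 PCNA (0.87) and SLC22A3 (0.85). For SYNM they were HECA (0.88) and CLPX (0.87), and for TCAP, whose profile is set by its 6 listed zeros, ZNF462 (0.85) and MAGIX (0.82). Each r is among the highest over 10464 genes and describes these 12 libraries.

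Other genes of the same structures were taken from lists. Of 27 further Z-disc genes tested 10 were higher in H, 0 passed, and the median log2 fold change was -0.09. FHOD3, a formin that builds sarcomeric actin, was 3.92 to 8.60 FPKM in H and 7.10 to 24.0 FPKM in L, a change of -1.30 with a standard error of 0.28 (adjusted p = 0.390, limma). The exact permutation test of FHOD3 gave an unadjusted p of 0.0043, and it was the only gene of that list with an unadjusted p under 0.05 in limma. NEBL, which encodes nebulette, had a log2 difference of 0.31 and SYNPO2, which encodes a filamin-binding Z-disc protein, of -0.52, with adjusted p of 0.725 and 0.743 (limma). NEBL was near the filter of 0.5 FPKM, at 0.76 to 1.72 FPKM in H and 0.47 to 0.85 in L, and its difference was 0.19 without H5. TTN, the gene of titin, was listed at 0 in 10 libraries, and NEB (nebulin) and XIRP2 (a Xin actin-binding protein) at 0 in 1 library each.

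Of 10 further intermediate filament and linker genes tested 5 were higher in H, 0 passed and the median was 0.05. PLEC, the gene of the linker plectin, NES, of the filament protein nestin, LMNA, of the nuclear lamins, and DTNA, of a dystrophin-associated protein, had log2 differences of -0.31, -0.68, -0.39 and 0.17 (adjusted p from 0.773 to 0.874, limma), and the first 3 were highest of all pigs in L3. Of 10 chaperones of these filaments 0 were higher in H, 10 were lower and 0 passed, with a median of -0.39. UNC45B, the myosin chaperone, had a log2 difference of -0.68 (adjusted p = 0.612, limma; exact permutation test, unadjusted p = 0.030). It was the only gene of that list with an unadjusted p under 0.05 in limma. Its L3 value, 33.4 FPKM, was the lowest of the L pigs, and its change ranged from -0.86 to -0.59 with a library left out. The log2 difference was -0.73 for the small heat shock gene HSPB7 and -0.26 for HSPB3 (adjusted p = 0.690 and 0.803, limma), and HSPB2 was listed at 0 in 6 libraries. The chaperones summed to 28558 FPKM in L3 and to 3029 to 9293 FPKM in the other 11 pigs. Without L3 1 of the 10 was higher in H and the median was -0.07, and without both H4 and L3 5 of the 10 were higher and the median was 0.01.

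Markers of other cell types were mostly higher in H. Of 7 adipocyte markers tested 7 were higher in H (median 0.82, summed level 56.5 to 157 FPKM in H and 34.8 to 84.98 in L), as were 4 of 4 erythroid (0.77, 85.4 to 301 against 73.9 to 162), 8 of 8 smooth muscle and pericyte (0.34, 87.7 to 225 against 72.8 to 150), 6 of 6 endothelial (0.30, 54.0 to 124 against 37.6 to 99.1), 5 of 6 fibroblast (0.21, 145 to 569 against 172 to 699) and 3 of 4 macrophage markers (0.21, 8.82 to 16.5 against 5.78 to 18.1). Without H4 the fibroblast markers were 3 of 6 higher (median -0.01) and the smooth muscle and pericyte markers 5 of 8 (0.21), H4 having the 225 FPKM of the latter, and without both H4 and L3 they were 2 of 6 (-0.03) and 6 of 8 (0.11). The macrophage median was 0.14 without H4 and 0.32 without L3. The macrophage marker CD68 was listed at 0 in all libraries. Of 7 fibre markers 4 were higher in H (median 0.07), and of 8 slow fibre markers 3 (median -0.09, 8005 to 12345 against 5916 to 13232 FPKM), or 1 of 8 (-0.22) without L3. The part of these other cells in the lower DES and SYNM of the H pigs was not tested.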

How the data were processed

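Paired-end reads of 76 bases were trimmed (Trim Galore) and mapped to Sscrofa11.1 (TopHat2 2.1.0) by the authors, who assembled each library alone (Cufflinks 2.2.1). The deposited files list, per library, assembled transcripts with exons and FPKM, and they name no genes and set no common scale. The sources used here do not say whether libraries keep the strand. Each transcript was assigned to the RefSeq gene of its strand that shares most exonic bases, single exons without strand where at least 50% lay in the gene. FLNC, MYOT, MYPN, PDLIM3 and SYNM overlap a gene of the other strand. FPKM were summed per gene and scaled by median ratios. Transcripts on scaffolds were left out, and 98.3% of introns had standard splice sites on this build.

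Genes with a group mean of at least 0.5 FPKM were tested as log2(FPKM + 0.5) with limma 3.58.1 (R 4.3.3, variance trend, two-sided, Benjamini-Hochberg), after a check on simulated data. Exact permutation tests (scipy 1.17.1) are two-sided. Correlations used 100000 permutations. The p-values measure the spread between pigs, and the labels give no batch or lane. Besides the 10 genes, the text names the 4 genes of smallest p of each wider list, any gene of these lists called or listed at 0 in a library while above 100 FPKM in another, and for each of the 10 genes the 2 genes with the highest Pearson correlation. A further gene that this rule selects is not reported here. ANKRD2 and HBA1 of the lists had no gene of that symbol. The genes and lists were chosen with earlier results of these data known.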

Additional observations from a re-analysis of the deposited data

Results flagged for a closer look

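In 5 cases a single pig lay apart from the other 5 of its group by Dixon's test at the 95% level, which chance alone passes in about 1 of 20 groups. FLNC was listed at 0 FPKM in L3. MYOT had 194 FPKM in L1, the pig with the long assembled transcripts. PDLIM5 had 1232 FPKM in H3, the pig with the 90-base transcript. The share of the upstream MYOT acceptor was 27.3% in H6 and 65.2% in L3, and the complete annotated MYOT intron chain was carried by 0 of 2 transcripts in H6 and by 1 of 2 in L3. The 30 groups tested were those of the 10 genes, the LDB3 end share and the 4 pairs of introns.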

How the results depend on the processing

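Of the 10 Z-disc and filament genes 0 passed the limma test under every alternative run, and 0 of the further Z-disc, filament and chaperone genes. Over all genes 1 passed, 0 with a minimum of 1 FPKM or zeros as missing, 2 without a variance trend or with array weights, and 1 to 3 with a library left out. The individual numbers did not pair the pigs (correlations of deviations from -0.07 to 0.06), and with them as a replicate block 0 genes and 0 intron chains passed. Intron chains called were 7, 1 when found in at least 3 libraries, 0 when in all 12, and 0 to 9 with a library left out. Main isoform shares called were 0 to 1 with a library left out.

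None of the genes whose change turned sign had passed the test. With annotated intron chains alone MYOT was -1.32, TCAP -1.56, MYPN 0.12, PDLIM5 -0.062, FHOD3 1.13, NEBL -0.049, NES 0.44 and HSPB7 1.07. With spliced transcripts alone PDLIM5 was -0.061 and HSPB3 0.87, and without transcripts under 200 bases PDLIM5 was -0.060. Over annotated exons LDB3 was -0.51, TCAP -0.021 and PDLIM5 -0.063. Without H4 and L3 LDB3 was -0.10 and HSPB3 0.016. TCAP was -0.22 with array weights, NEB -0.24 and XIRP2 -0.74 with zeros as missing. With a library left out LDB3 ranged from -0.013 to 0.21, TCAP from -0.81 to 1.47, PDLIM5 from -0.11 to 0.23, NEB from -0.24 to 2.34, XIRP2 from -0.74 to 1.53 and the share of the main LDB3 chain from -22.4 to 1.95 percentage points. The cause was not tested. The share of the LDB3 long end kept its sign, from -9.29 to -6.76 points, with a library left out. The alternatives without short transcripts and over annotated exons, and all of LDB3 ends, were chosen after the data were seen. Without counts, depth per gene is unknown, and a transcript that was not assembled cannot be told from one that was absent.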
